A study of Rattus norvegicus with 72 samples.

Results

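The 33 genes described here serve DNA replication, the supply of its building blocks, their regulation or the copying of chromatin. All 33 were measured among 14506 genes on Affymetrix Rat Gene 1.0 ST arrays of rat liver. They were taken by name: 2 E2F regulators, 8 licensing genes, 3 genes of helicase activation, 12 genes of the polymerases and the replication fork, 5 genes of nucleotide supply and 3 genes that copy chromatin. Where a gene had several probe sets, the probe set with the highest mean in the authors' batch-corrected table stood for it. A liver sample was taken from each of 36 rats at partial hepatectomy (PHx, an operation that removes part of the liver), and a second from the remnant of the same rat 1, 6 or 24 h later, which gives 72 arrays. The rats were fed chronically with ethanol (EtOH), or pair-fed a high fat (HF) or a carbohydrate (CHO) control diet. The comparisons of each remnant with its control rest on the 27 rats whose arrays the authors did not mark as outliers: 4, 3 and 3 at 1 h, 4, 2 and 3 at 6 h, and 3, 3 and 2 at 24 h in EtOH, HF and CHO. All rats had surgery and none had a sham operation, so the effect of PHx and that of the time since surgery cannot be told apart. The rats are separate animals by their labels. The sources used here do not give the composition or length of the diets. No 12 h samples were analysed here. The EtOH 24 h replicate 4 remnant carries a high fat diet tag, and its array, marked as an outlier, enters only the alternative that ignores these marks. The groups follow the titles and diet labels. The source names exchange HF and CHO, and if those were right each comparison with HF would be one with CHO and the reverse.

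Most hepatocytes of an adult liver rest outside the cell cycle, and partial hepatectomy is the classical way to bring them back into it in near synchrony. Before S phase, the origin recognition complex, Cdc6 and Cdt1 load the Mcm2-7 helicase onto DNA, a step called licensing. Cdc45 and the GINS complex then switch the helicase on, primase and the polymerases copy both strands around the sliding clamp Pcna, and ribonucleotide reductase and thymidylate synthase supply the deoxynucleotides. E2F transcription factors are known to switch many of these genes on as cells leave G1. Ethanol feeding is known from rat studies to delay liver regeneration.

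The letters an E2F factor is known to bind were looked for in the members' promoters, because the members moved together at 24 h. RefSeq (build GRCr8) gave a window of 250 bases before to 50 after the start for 28 of the 33 members; E2f1, E2f8, Cdc6, Rrm2 and Orc1 were not matched. The motif was searched on both strands as TTTCCCGC, TTTCGCGC, TTTGCCGC or TTTGGCGC, and overlapping matches were counted separately. It stood in 14 of the 28 windows (50%), against 3.08% of the windows of 11968 measured genes. At least 2 matches stood in 7 member windows, against 0.159% of the measured genes' windows. By role, 5 of 6 licensing genes held it (all but Orc6), as did 5 of 12 polymerase and fork genes, 1 of 4 nucleotide supply genes (Tyms), 1 of 3 helicase activation genes and 2 of 3 chromatin genes. The windows of the 4 Mcm genes, subunits of 1 helicase, and that of Tyms, the nucleotide supply gene with a match, are shown as examples. Cdt1, Gins1, Pole, Rfc3 and Rpa2 also held the motif and, like the 5 shown, rose in all diets at 24 h. Lig1, Dnmt1 and Pola1 held it and rose in HF and CHO but were not called in EtOH. Slbp held it and was called in no diet. Dut, Pcna, Prim1, Rfc5, Rrm1 and Uhrf1 did not hold it and rose in all diets. Cdc45, Fen1, Orc6, Pold1, Prim2, Rfc4 and Tk1 did not hold it either and rose in HF and CHO but were not called in EtOH. Gins2 lacked it too and was called in HF alone. A link between motif and rise was not tested. Each window shown is written 5′ to 3′ on the gene's own strand, with the E2F letters in capitals. The capitals join where matches on the 2 strands overlap.
Mcm2 promoter, chr4:122918045-122918344, minus strand: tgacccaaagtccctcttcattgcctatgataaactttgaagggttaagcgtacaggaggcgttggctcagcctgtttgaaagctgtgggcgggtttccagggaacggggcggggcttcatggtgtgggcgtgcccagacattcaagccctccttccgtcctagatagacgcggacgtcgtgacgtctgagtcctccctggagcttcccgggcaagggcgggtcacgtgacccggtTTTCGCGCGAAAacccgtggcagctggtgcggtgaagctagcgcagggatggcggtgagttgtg
Mcm5 promoter, chr19:13488563-13488862, plus strand: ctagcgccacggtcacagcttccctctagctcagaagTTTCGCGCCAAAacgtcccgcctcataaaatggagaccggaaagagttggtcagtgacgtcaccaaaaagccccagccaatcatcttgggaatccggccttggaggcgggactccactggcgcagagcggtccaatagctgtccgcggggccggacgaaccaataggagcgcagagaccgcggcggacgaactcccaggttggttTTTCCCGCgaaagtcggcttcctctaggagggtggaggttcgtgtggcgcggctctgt
Mcm6 promoter, chr13:42404303-42404602, minus strand: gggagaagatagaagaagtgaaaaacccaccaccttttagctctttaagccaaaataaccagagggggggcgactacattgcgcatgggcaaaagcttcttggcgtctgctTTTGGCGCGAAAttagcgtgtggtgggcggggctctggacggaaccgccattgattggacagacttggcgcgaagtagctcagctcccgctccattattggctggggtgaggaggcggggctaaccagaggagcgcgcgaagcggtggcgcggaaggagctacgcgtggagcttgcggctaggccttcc
Mcm7 promoter, chr12:22163129-22163428, minus strand: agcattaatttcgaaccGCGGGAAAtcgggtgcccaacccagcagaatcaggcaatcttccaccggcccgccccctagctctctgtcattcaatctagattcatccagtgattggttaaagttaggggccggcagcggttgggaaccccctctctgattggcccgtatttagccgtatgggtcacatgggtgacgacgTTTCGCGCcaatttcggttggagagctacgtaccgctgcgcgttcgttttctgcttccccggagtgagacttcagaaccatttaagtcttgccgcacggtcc
Tyms promoter, chr9:120776034-120776333, minus strand: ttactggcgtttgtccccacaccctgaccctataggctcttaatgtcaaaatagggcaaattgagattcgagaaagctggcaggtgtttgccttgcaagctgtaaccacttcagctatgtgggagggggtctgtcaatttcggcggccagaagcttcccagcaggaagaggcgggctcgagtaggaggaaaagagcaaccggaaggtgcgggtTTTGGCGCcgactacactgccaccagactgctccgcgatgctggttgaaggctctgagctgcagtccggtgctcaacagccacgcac

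In Mcm2 the 2 overlapping matches begin 14 and 10 bases before the start, and in Tyms the single match begins 37 bases before it. Mcm5 held 3 matches, of which TTTCCCGC begins 8 bases before the start. The letters CCAAT, searched on both strands, stood in 60.7% of the member windows, against 38.3% of those of the measured genes. The letters TTTGAA, the core of an element known from genes of G2 and mitosis, stood in 7.14% of member windows, against 15.2%. These matches describe letters, and binding was not measured.

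The arrays' median levels lay between 4.54 and 4.77 (log2), and 9 of the 33 members had a mean control level under the median of those (E2f1, E2f8, Cdc6, Gins1, Pole, Slbp, Cdc45, Orc1 and Orc6). At 24 h, Slbp and Orc1 alone still did so in the remnants averaged over all diets. In EtOH remnants, E2f1 (4.50), E2f8 (4.57), Cdc6 (4.54), Gins1 (4.35) and Orc6 (4.48) also had means under that median of 4.65. No detection calls were used, so the size of a change that starts from such a level is uncertain. The probe set listed for Tk1 sits in the array's numbering among 20 probe sets of chromosome 3 genes, while RefSeq places Tk1 on chromosome 10. That of Slbp sits among 20 probe sets of chromosome 4 genes, while Slbp lies on chromosome 14. Which transcript these 2 probe sets read was not tested. In a bulk liver sample, a change in the share of a cell type and a change in RNA per cell cannot be told apart.

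At 1 h few members had changed. In the mean of the diets, 0 of 33 rose (4.47% of all genes did) and 2 fell (5.83% of all genes), by the paired fit in limma, with calls at 0.05 after Benjamini-Hochberg adjustment across the 14506 genes. The members' median change was -0.09, against -0.01 over all genes. Cdt1, which loads the Mcm helicase, changed by -0.35 ± 0.09 (SE, adjusted p = 0.0135), and 9 of 10 rats lay under 0. Dnmt1, which copies DNA methylation onto the new strand, changed by -0.30 and lay under 0 in 8 of 10 rats. Within each diet limma called 0 members (of all genes, 1.73% were higher and 1.21% lower in EtOH, 1.50% and 0.620% in HF, and 1.27% and 0.586% in CHO), with 3 members under an unadjusted p of 0.05 in EtOH, 1 in HF and 2 in CHO. The calls depended on single rats: 0 members passed without CHO 1 h replicate 2 or 4 or HF 1 h replicate 2, and 1 passed without CHO 1 h replicate 1, HF 1 h replicate 1 or EtOH 1 h replicate 1, 2 or 4. Within each of the 2 scan days of the 1 h rats, 0 passed.

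At 6 h the members were called about as often as other genes. In the mean of the diets, 5 of 33 rose (20.0% of all genes) and 7 fell (19.9% of all genes). Rrm2, the small subunit of ribonucleotide reductase whose amount limits the enzyme, rose by 1.00 ± 0.13 on the log2 scale (SE, adjusted p = 2.12e-07). The others that rose were Prim1 (0.48), the catalytic primase subunit, the clamp Pcna (0.46), Orc6 (0.43) of the origin recognition complex and the flap nuclease Fen1 (0.29). Those that fell were Pole (-0.61), the leading-strand polymerase, Dut (-0.60), which removes dUTP, the helicase subunit Mcm6 (-0.58), the ligase Lig1 (-0.55), Tyms (-0.38), the primase subunit Prim2 (-0.36) and the clamp loader subunit Rfc5 (-0.35). Pole, Lig1, Rfc5 and Dut lay under 0 in all 9 rats. Without HF 6 h replicate 3, 7 members were called in place of 12, and within the scan day that held all diets 5 were.

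Taken diet by diet, rises at 6 h were called in HF and CHO alone, and that of Fen1 in no single diet. Fen1 changed by 0.05 to 0.62 in EtOH, 0.43 and 0.62 in HF and -0.105 to 0.14 in CHO. In EtOH 0 members rose (16.5% of all genes did) and 11 fell (17.8% of all genes), with 15 members under an unadjusted p of 0.05 in limma. In HF 2 rose (10.0% of all genes), Prim1 and Rrm2, and 0 fell (9.30% of all genes). In CHO 3 rose (14.8% of all genes), Rrm2, Pcna and Orc6, and 3 fell (14.3% of all genes), Dut, Lig1 and Pole. The 11 that fell in EtOH were Mcm6, Tyms, Dut, Pole, Lig1, Rfc5, Prim2, Rfc4, Pola1, Rrm1 and Tk1, with log2 changes between -1.26 (Mcm6) and -0.30 (Tk1). Without HF 6 h replicate 4, 1 member was called in HF, and without CHO 6 h replicate 2 or 4, 3 were called in CHO. With the scan day in place of the animal as block, 7 were called in EtOH and 1 in HF.

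**Figure D1:**
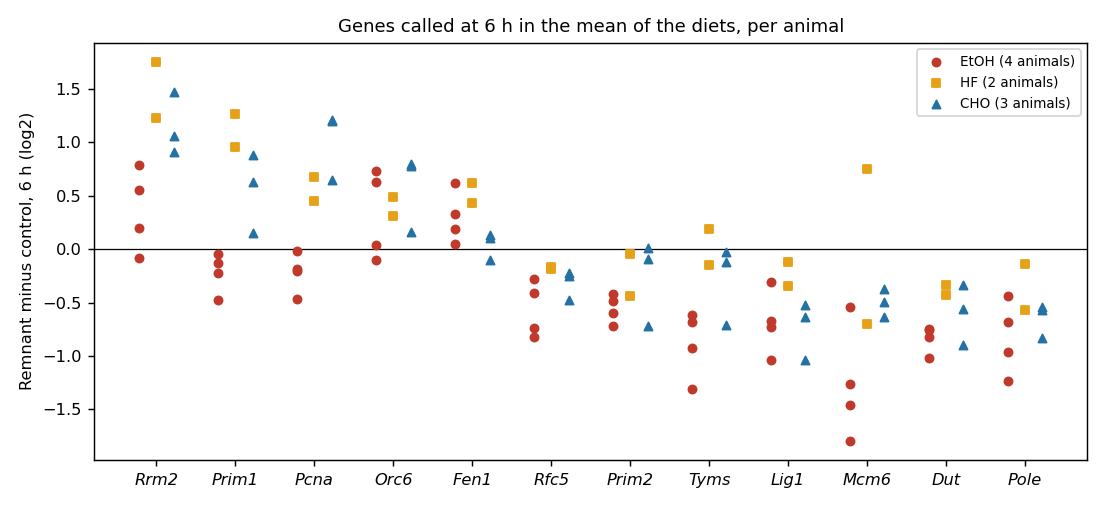
Change at 6 h (remnant minus control of the same rat, log2) of the 12 members called in the mean of the diets, with 1 point per rat, EtOH left of HF and CHO. For Rrm2, Prim1 and Pcna every EtOH point lies under every HF and CHO point, while Pole, Lig1, Rfc5 and Dut lie under 0 in all 9 rats.

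Rrm2 had 6.17, 6.52, 7.47 and 6.39 in the EtOH remnants at 6 h, against 6.26, 5.74, 6.91 and 6.18 in the controls of the same rats. In HF it had 5.65 and 5.20 in the remnants, against 3.89 and 3.97 in the controls. In CHO it had 5.45, 5.00 and 5.40 in the remnants, against 3.97, 3.95 and 4.49 in the controls. The EtOH livers had the highest Rrm2 levels on both sides of the comparison and the smallest changes between them, -0.08 to 0.78, against 1.23 and 1.76 in HF and 0.91 to 1.48 in CHO. Prim1 changed by -0.47 to -0.04 in EtOH, against 0.96 and 1.27 in HF and 0.15 to 0.89 in CHO. Its changes in EtOH did not overlap those in HF and CHO either. Its remnant levels did overlap, with 6.42 to 6.61 in EtOH, 6.56 and 7.07 in HF and 6.41 to 6.76 in CHO. Its control levels were 6.57 to 7.08 in EtOH, against 5.60 and 5.80 in HF and 5.88 to 6.26 in CHO. The changes of 5 of 33 members (Pcna, Gins1, Rrm1, Rrm2 and Prim1) lay under those of every HF and CHO rat in all 4 EtOH rats, as they did in 4.12% of all genes.

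The 6 h response was lower in EtOH than in HF in 1 member (1.49% of all genes) and higher in 0 (0.558% of all genes). The 1 was Prim1, by -1.33 ± 0.34 (SE, limma adjusted p = 0.0334). The response differed from that in CHO in 0 members (1.15% of all genes lower, 0.731% higher), with 3 under an unadjusted p of 0.05 in limma. Against the mean of HF and CHO, a comparison added after the data had been seen, 2 members were lower (2.30% of all genes), Prim1 by -1.05 and Rrm2 by -0.96. The call against HF was lost without EtOH 6 h replicate 2 or 4 or HF 6 h replicate 3 or 4, and within the scan day that held all diets. It became 2 members without CHO 24 h replicate 2 or 4, HF 24 h replicate 4 or EtOH 1 h replicate 2, and the 0 against CHO became 1 without CHO 24 h replicate 2 or 4. Against the mean of both diets, 1 member was called without CHO 6 h replicate 2, EtOH 6 h replicate 1, 2 or 4, or HF 6 h replicate 3 or 4. With the scan day in place of the animal as block, 0 members were called in either comparison.

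At 24 h nearly all members had risen in the remnant. In the mean of the diets 32 of 33 members rose, against 16.6% of all genes, and 0 fell, against 17.4% of all genes. The members' median change was 1.38 on the log2 scale, against -0.03 over all genes, with 23 members at least 2-fold and 7 at least 4-fold up. In 23 members the remnant lay above the control in all 8 rats, as it did in 7.59% of all genes. Slbp, the histone mRNA binding protein, did not pass (0.13 ± 0.08, SE, limma adjusted p = 0.245), and Orc1 (0.25) and Gins2 (0.30) were the smallest of those that did. The rise was larger than at 6 h in 31 members (14.6% of all genes), a comparison between different rats.

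**Figure D2:**
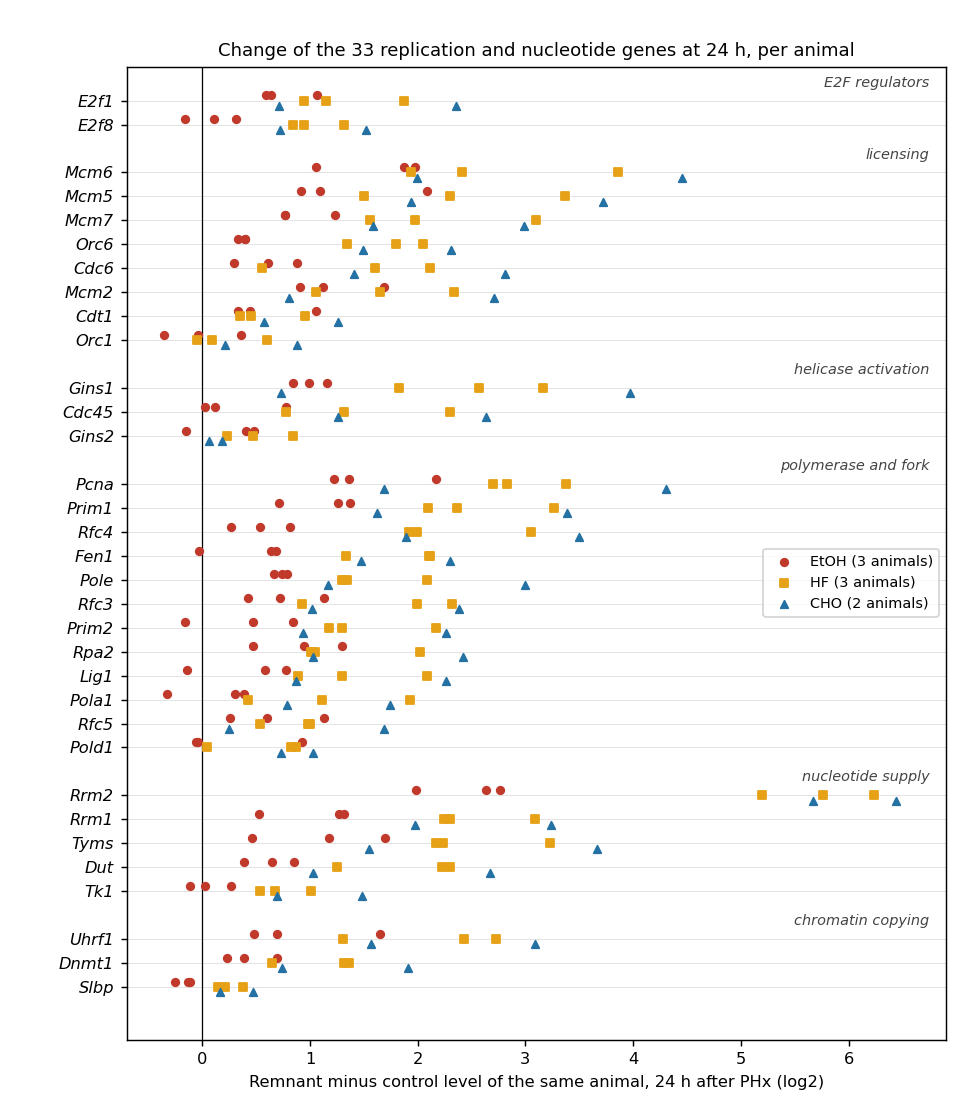
Change at 24 h (remnant minus control of the same rat, log2) of the 33 members in their 6 roles, ordered within each by the mean of HF and CHO, with 1 point per rat. The EtOH points lie left of all HF and CHO points in 15 members, and the HF and CHO points of Rrm2 lie right of those of every other member.

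Among the 8 licensing genes all rose in the mean of the diets, by 0.25 to 2.53. Mcm6 had 7.55, 6.62 and 7.12 in EtOH remnants and 5.68, 4.65 and 6.06 in their controls. In HF it had 7.42, 8.85 and 7.97 in remnants and 5.02, 4.99 and 6.03 in controls, and in CHO 9.46 and 7.18 in remnants and 5.01 and 5.18 in controls. Remnants lay above their own controls in all 8 rats, and the EtOH and control diet changes overlapped. The fitted rise of Mcm6 was 2.53 ± 0.21 (SE, limma adjusted p = 1.53e-10). Its partners in the ring rose by 2.19 (Mcm5), 1.81 (Mcm7) and 1.56 (Mcm2), the loader Cdc6 by 1.38 and Cdt1 by 0.70. Orc6 rose by 1.34 and Orc1, the ATPase of the same origin recognition complex, by 0.25, from a level under the arrays' median.

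Of the 3 genes that switch the helicase on, Gins1 rose by 1.95 and Gins2, from the same complex, by 0.30. Cdc45, which joins GINS and the Mcm ring, rose by 1.24. Gins1 differed widely between the CHO rats, with changes of 3.97 and 0.73.

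All 12 polymerase and fork genes rose, by 0.58 to 2.52. Pcna had 8.63, 8.002 and 8.38 in EtOH remnants and 6.46, 6.64 and 7.15 in their controls. It had 8.99, 9.88 and 9.43 in HF remnants and 6.16, 6.50 and 6.73 in controls, and 10.47 and 8.55 in CHO remnants and 6.17 and 6.85 in controls. All 8 remnants stood above all 8 controls, and the changes of EtOH overlapped with that of 1 CHO rat. The fitted rise was 2.52 ± 0.17 (SE, limma adjusted p = 2.42e-12). Primase split, with Prim1 at 2.06 and Prim2, its large subunit, at 1.18. The clamp loader subunits Rfc4, Rfc3 and Rfc5 rose by 1.85, 1.40 and 0.83. The catalytic subunits of the 3 polymerases rose by 1.46 (Pole), 0.85 (Pola1, which extends the primers) and 0.58 (Pold1, of the lagging strand). The flap nuclease Fen1 (1.39), Rpa2 (1.33), a subunit of the single-strand binding protein, and the ligase Lig1 (1.13) completed the set.

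The 5 nucleotide supply genes all rose and included the largest change of the 33. Rrm2 had 8.56, 7.40 and 7.45 in EtOH remnants, against 5.93, 4.64 and 5.47 in their controls. It had 10.24, 10.86 and 10.41 in HF remnants, against 4.47, 4.63 and 5.21 in controls, and 11.12 and 10.26 in CHO remnants, against 4.68 and 4.59 in controls. All EtOH remnants lay under all HF and CHO remnants, while 2 of the 3 EtOH controls lay above all 5 HF and CHO controls. The mean changes were 2.46 ± 0.42 in EtOH (SD, n = 3), 5.73 ± 0.52 in HF (n = 3) and 6.05 ± 0.55 in CHO (n = 2), which are 5.50-fold, 53.1-fold and 66.4-fold. The partner subunit Rrm1 rose by 2.06, Tyms, which makes dTMP, by 2.09, Dut by 1.47 and the gene listed as thymidine kinase Tk1 by 0.63. Of the 20 neighbours of Rrm1's probe set in the array's numbering, 3 belong to genes of its own chromosome.

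Of the regulators, E2f1, an activator of the G1 to S genes, rose by 1.21 and E2f8, a repressor that acts late in the cycle, by 0.75, both from under the arrays' median. Uhrf1, which guides Dnmt1 to half-methylated DNA, rose by 1.81 and Dnmt1 by 0.96.

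Fewer members rose in EtOH than in either control diet. In EtOH 18 members rose at 24 h (5.51% of all genes), in HF 31 (14.1% of all genes) and in CHO 30 (9.73% of all genes). In each diet 0 fell (8.68% of all genes in EtOH, 10.8% in HF and 6.92% in CHO). The median change of the 33 was 0.63 in EtOH, 1.58 in HF and 1.85 in CHO. At least 2-fold rises were fitted for 8 members in EtOH, 26 in HF and 27 in CHO. The 18 that rose in EtOH rose in HF and CHO too, led by Rrm2 (2.46), Mcm6 (1.64), Pcna (1.58), Mcm5 (1.36) and Mcm2 (1.24). Another 12 rose in both control diets and were not called in EtOH: Cdc45, Cdc6, Dnmt1, E2f8, Fen1, Lig1, Orc6, Pola1, Pold1, Prim2, Rfc4 and Tk1. The EtOH count was 8 without EtOH 24 h replicate 1, and in CHO, where only 2 rats had both arrays kept, it was 20 without CHO 24 h replicate 2.

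The difference itself was tested as the interaction of diet and PHx. Against CHO, 17 members rose less in EtOH (2.48% of all genes), and against HF 18 did (4.09% of all genes). These 2 comparisons share the EtOH rats. The members lower in both were Cdc45, Dut, E2f8, Fen1, Mcm7, Orc6, Pola1, Prim1, Prim2, Rfc4, Rrm1, Rrm2, Tk1, Tyms and Uhrf1. Cdc6 and Pole were lower against CHO alone, and Gins1, Lig1 and Pcna against HF alone. In 0 members was the EtOH response higher (0.455% of all genes against CHO, 0.903% against HF). HF and CHO differed in 0 members (0.00% of all genes), with 0 under an unadjusted p of 0.05 in limma, and the members' median difference was -0.14. The count against CHO rests on few rats: it was 1, Rrm2, without CHO 24 h replicate 2, 9 without EtOH 24 h replicate 3 and 28 without CHO 24 h replicate 4. With array weights it was 8. Within the scan day that held all diets a single CHO rat remained, and the members' median difference there was -1.91. The median was -1.88 without CHO 24 h replicate 4 and -0.45 without CHO 24 h replicate 2, against -1.22 in the main fit. The count against HF was 7 without HF 24 h replicate 2 and 9 without EtOH 24 h replicate 3, and 14 within that scan day. The sign of each called member was the same in every fit that left out a rat, for all 17 and all 18.

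Against the mean of HF and CHO, the comparison added after the data had been seen, 23 members rose less in EtOH (5.10% of all genes) and 0 more (1.19% of all genes). The count was 14 without CHO 24 h replicate 2 and 15 without EtOH 24 h replicate 3. The 12 members called whichever rat was left out were Cdc45, Dut, E2f8, Fen1, Mcm7, Orc6, Prim1, Rfc4, Rrm1, Rrm2, Tk1 and Uhrf1. The largest differences were those of Rrm2 (-3.43 ± 0.27, SE, limma adjusted p = 1.06e-09) and Rfc4 (-1.97 ± 0.29, adjusted p = 4.93e-05). Rfc4 had 5.40, 5.38 and 5.87 in EtOH remnants, against 6.40, 7.67 and 6.93 in HF and 7.85 and 6.63 in CHO remnants. In 15 members the changes of all 3 EtOH rats lay under those of all 5 HF and CHO rats, as in 5.98% of all genes.

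The fitted shortfall in EtOH varied between members, though no test compared members with each other. As a share of the mean rise in HF and CHO, the fitted EtOH rise had a median of 40.3% over the 33 members. Cdt1 reached 81.5%, Gins2 77.7%, Rfc5 73.6% and Mcm2 71.9%, while Slbp stood at -58.6%, Orc1 at -3.16%, the gene listed as Tk1 at 6.82%, E2f8 at 8.02% and Pola1 at 9.86%. The shares of Slbp, Orc1 and Gins2 rest on small rises that were not called in CHO. Those of E2f8, Slbp and Orc1 rest on mean EtOH levels under the arrays' median, both before PHx and at 24 h. For Cdt1 the difference from the mean of both diets was -0.14, with a 95% interval of -0.59 to 0.31, and for Mcm2 -0.48, with an interval of -1.09 to 0.12. The smallest called difference was that of Dnmt1, -0.78, which lies inside the interval of Mcm2 and outside that of Cdt1. Mcm6 did not pass at -1.35 (limma adjusted p = 0.0547), so the 10 members that did not pass are not shown to have risen equally.

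**Figure D3:**
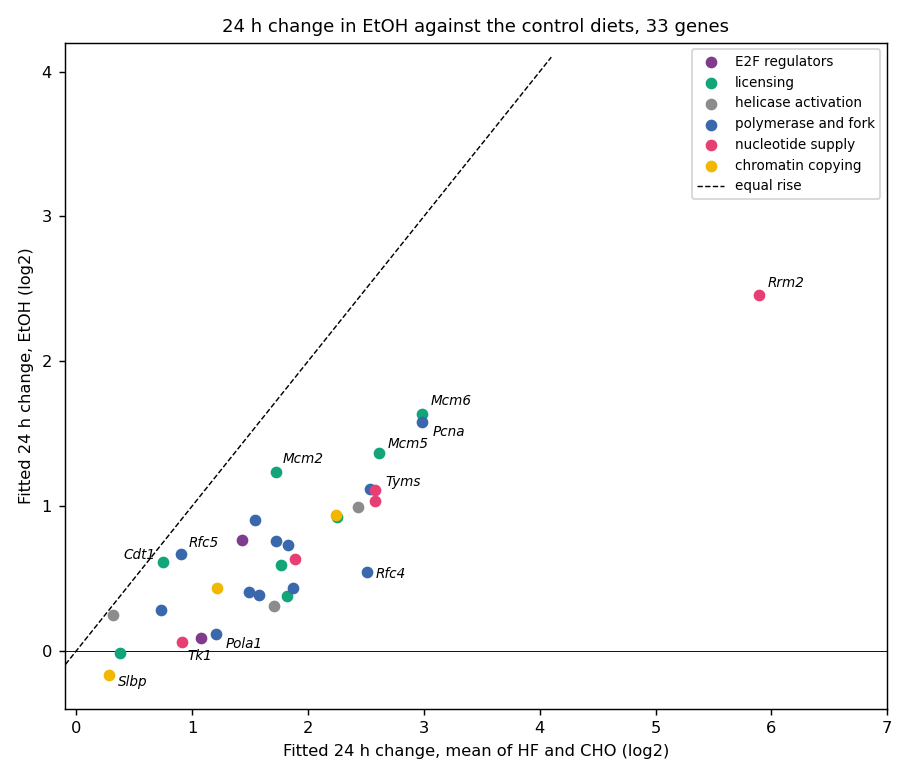
Fitted change at 24 h in EtOH (vertical axis, log2) against the mean of the fitted changes in HF and CHO (horizontal axis, log2), with 1 point per member coloured by role and a dashed line where both are equal. All 33 points lie under the line, with Cdt1, Gins2 (the grey point at lower left) and Rfc5 nearest to it and Rrm2 farthest below.

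By role, licensing genes had a median 24 h change of 0.77 in EtOH, 1.71 in HF and 2.00 in CHO. Polymerase and fork genes had 0.60 in EtOH, 1.56 in HF and 1.71 in CHO, and nucleotide supply genes 1.04 in EtOH, 2.54 in HF and 2.61 in CHO. Of these 3 roles, nucleotide supply had the highest median in every diet. Rises lower in EtOH than the mean of HF and CHO were called in 5 of 5 nucleotide supply genes, 9 of 12 polymerase and fork genes and 4 of 8 licensing genes (Cdc6, Mcm5, Mcm7 and Orc6), against 5.10% of all genes. Among the 5 nucleotide supply genes are Tk1 and Rrm1, whose probe sets have 0 and 3 of 20 neighbours on the gene's own chromosome. The median share of the control diet rise reached in EtOH was 46.7% for licensing, 39.1% for polymerase and fork and 40.3% for nucleotide supply genes. The roles overlapped in these shares, from -3.16% to 81.5% for licensing, 9.86% to 73.6% for polymerase and fork and 6.82% to 43.2% for nucleotide supply, and no test was made between roles.

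**Figure D4:**
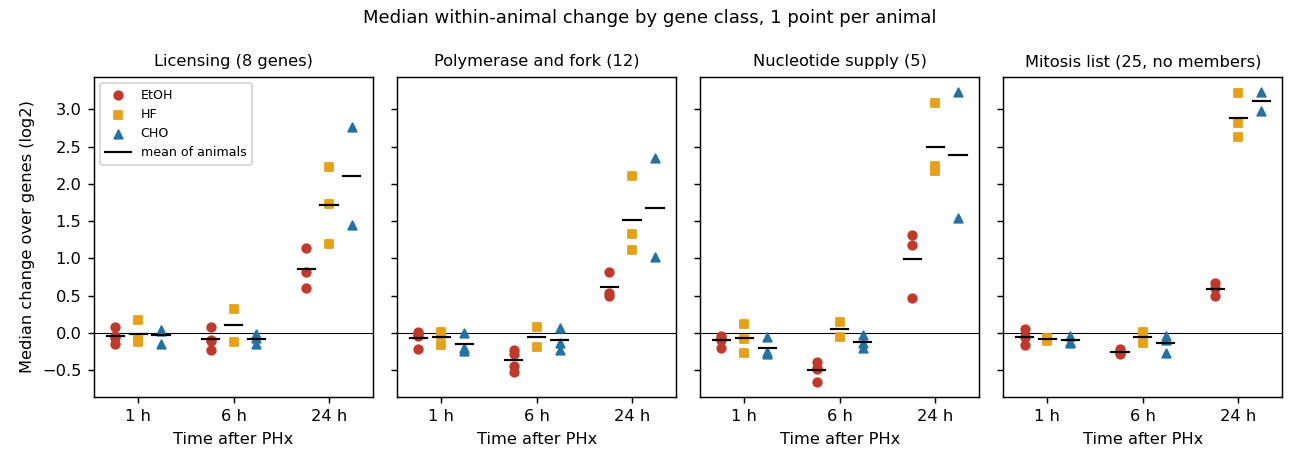
Median within-rat change (log2) over licensing, polymerase and fork, and nucleotide supply genes and a mitosis list at 1, 6 and 24 h. There is 1 point per rat, EtOH left of HF and CHO, and a bar at the mean of the rats. At 24 h the EtOH medians lie under those of HF and CHO in each panel drawn. The gap is widest in the mitosis list, whose 25 genes are not members. The other roles are not drawn. In 2 of them the rats' 24 h medians overlapped. EtOH reached 0.78 in helicase activation (lowest CHO 0.73) and 0.69 in chromatin genes (lowest HF 0.64).

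Rats differed within a diet as well. The median change of the 33 members at 24 h was 0.84, 0.48 and 0.53 in the 3 EtOH rats, against 1.06, 2.11 and 1.37 in HF and 2.42 and 1.03 in CHO. CHO 24 h replicate 2 had the highest change of all 8 rats in 30 members, and HF 24 h replicate 2 in the other 3. The lowest change of a member was that of an EtOH rat in 30 of 33. The mitosis list, which was not used to choose members, separated the diets more widely: its medians were 0.60, 0.49 and 0.67 in EtOH, against 2.63, 2.82 and 3.22 in HF and 3.24 and 2.97 in CHO.

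The remnants were also compared directly, without their controls, on the 32 remnant arrays kept. At 24 h 26 members were lower in EtOH than in CHO (5.16% of all genes) and 19 lower than in HF (2.66% of all genes), with medians over the 33 of -1.20 and -0.97. Rrm2 differed by -2.89 from CHO and by -2.77 from HF, less than in the comparison of changes. The count against CHO was 16 without CHO 24 h replicate 2 or without EtOH 24 h replicate 2. Against HF it was 7 without EtOH 24 h replicate 2, 10 without HF 24 h replicate 2 and 29 without HF 24 h replicate 1.

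Before PHx, Rrm2 and Prim1 were higher in EtOH livers than in those of both control diets, while the members as a list were called about as often as other genes. In 29 control arrays (12 EtOH, 9 HF and 8 CHO), 2 members were higher in EtOH than in CHO (6.35% of all genes) and 4 higher than in HF (7.41% of all genes), and 0 were lower (5.46% against CHO, 6.05% against HF). The 29 leave out 2 unmarked CHO controls (1 h replicate 3 and 6 h replicate 1). Their columns in the authors' table without outliers match the remnant array of the same rat. With these 2 controls (31 arrays) the counts were also 2 and 4. HF and CHO controls differed in 0 members (0.0620% of all genes higher, 0.103% lower), with 1 under an unadjusted p of 0.05 in limma. Rrm2 ranged from 4.27 over a median of 5.84 to 6.91 in EtOH controls, against 3.89, 4.55 and 5.21 in HF and 3.95, 4.54 and 5.21 in CHO. The groups overlapped, and the means were 5.79 ± 0.78 in EtOH (SD, n = 12), 4.51 ± 0.40 in HF (n = 9) and 4.53 ± 0.46 in CHO (n = 8). The fitted difference was 1.34 ± 0.30 from CHO (SE, limma adjusted p = 0.00299) and 1.31 ± 0.27 from HF (adjusted p = 0.00125). Prim1 was higher by 0.53 than in CHO and by 0.62 than in HF, and Rfc4 (0.35) and Dut (0.26) were higher than in HF. Rrm2 passed against both diets, and Prim1 against HF, whichever array was left out. Prim1 was lost against CHO without EtOH 1 h replicate 4, EtOH 6 h replicate 2, EtOH 24 h replicate 1, CHO 1 h replicate 4 or CHO 6 h replicate 2, and the count there was 4 without EtOH 1 h replicate 3. Rfc4 and Dut were lost against HF without any of EtOH 1 h replicates 2 and 4, EtOH 6 h replicates 2 to 4, EtOH 24 h replicate 1, HF 1 h replicates 1 and 4, HF 6 h replicates 3 and 4 and HF 24 h replicate 1. Of 10 Kupffer cell and macrophage markers, 4 were higher in EtOH controls than in CHO and 8 higher than in HF, and their part in the result was not tested. How much of the smaller changes of these genes after PHx goes with their higher controls was not tested.

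**Figure D5:**
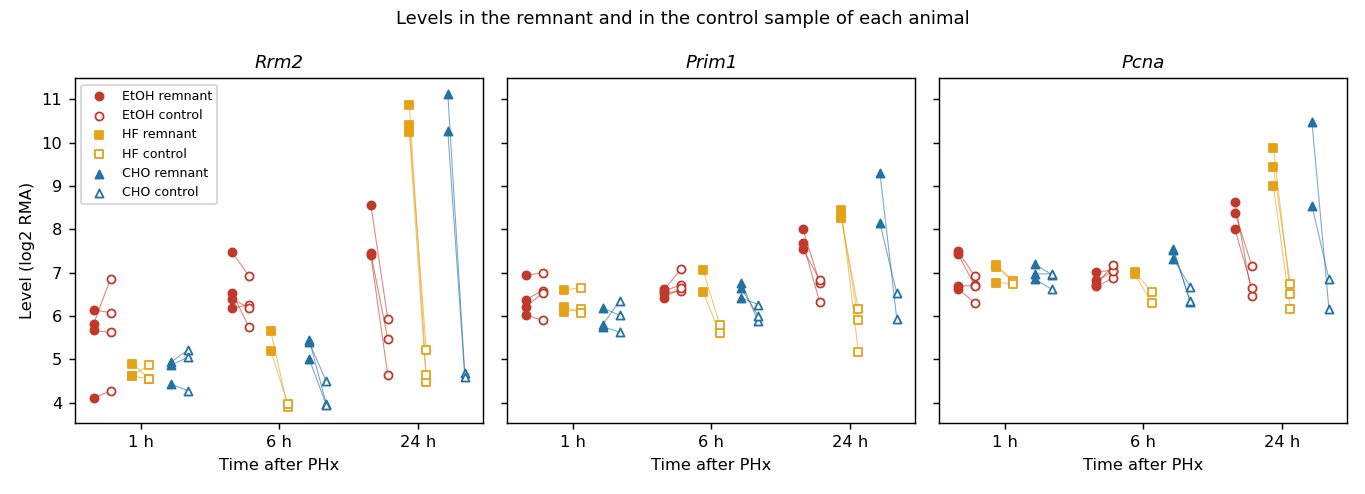
Levels (log2 RMA) of Rrm2, Prim1 and Pcna at 1, 6 and 24 h, with filled points for remnants, open points for controls, a line joining the samples of a rat, and EtOH left of HF and CHO. Rrm2 controls of EtOH rats lie mostly above those of HF and CHO, and at 24 h the Rrm2 remnants of EtOH rats, 7.40 to 8.56, lie under those of both control diets.

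Most genes of the rest of the pathway rose too. At 24 h 16.6% of all genes rose and 17.4% fell in the mean of the diets. Of 27 further origin and fork genes 21 rose and 3 fell, with a median of 0.53. They were led by Gmnn (1.94), the inhibitor of Cdt1, Gins4 (1.29), Pold2 (1.23), Rpa3 (1.16), Rfc2 (1.14) and Tipin (1.11), while Pold4 (-0.33), Rfc1 (-0.29) and Orc3 (-0.24) fell. Of 11 E2F, Rb and S-phase cyclin genes, 6 rose (Ccna2 2.77, Ccne1 2.57, Ccne2 1.89, Cdc25a 0.85, E2f7 0.74 and Cdk2 0.57) and Rbl2 (-0.62) and Rb1 (-0.30), which restrain E2F, fell. Of 27 other nucleotide synthesis genes, 19 rose, led by Ctps1 (1.66), Nme1 (1.41), Dck (1.23), Dtymk (1.17), Gart (1.05) and Nme2 (1.01). Tk2 (-0.38), the mitochondrial thymidine kinase, and Ctps2 (-0.32) fell. Of 9 chromatin assembly genes 6 rose, with Asf1b (1.93) and Chaf1b (1.00) first, followed by Nasp (0.79), Ssrp1 (0.69), Cdca7 (0.67) and Dek (0.43). All 25 mitosis genes rose, with a median of 2.25, led by Top2a (3.78), Ccnb1 (3.07), Cdk1 (2.88), Plk1 (2.69), Nuf2 (2.67) and Ndc80 (2.66).

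Against the mean of HF and CHO, 24 of the 25 mitosis genes rose less in EtOH, with a median difference of -2.34, against -1.17 over the 33 members. Of all genes, 5.10% were lower in EtOH and 1.19% higher. Lower responses in EtOH were called in 8 of 27 origin and fork genes and 3 of 11 E2F, Rb and cyclin genes. They were also called in 7 of 27 nucleotide synthesis genes and 4 of 9 chromatin assembly genes, and 0 of these lists' genes were higher.

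Markers of liver cell types were read beside the members. At 1 h 4.47% of all genes rose and 5.83% fell in the mean of the diets. There 6 of 10 Kupffer cell and macrophage, 2 of 6 endothelial and 1 of 9 stellate and fibroblast markers rose. Of the markers 0 fell. At 6 h, 5 of 6 neutrophil, 4 of 6 endothelial and 3 of 10 Kupffer cell and macrophage markers rose (20.0% of all genes). In these lists 0 markers fell (19.9% of all genes). Of 10 hepatocyte markers 3 rose and 3 fell, of 9 stellate and fibroblast markers 1 rose and 5 fell, and 1 of 5 cholangiocyte and 2 of 3 erythroid markers fell. Against the mean of HF and CHO at 6 h, 1 of 6 neutrophil markers was higher in EtOH (1.17% of all genes). In the other lists 0 markers passed (2.30% of all genes were lower). In the mean of the diets at 24 h, 16.6% of all genes rose and 17.4% fell. Of 10 hepatocyte markers 1 rose and 5 fell, and of 10 Kupffer cell and macrophage markers 3 rose and 3 fell. Of 6 endothelial markers 2 fell, of 9 stellate and fibroblast markers 2 rose and 3 fell, of 8 lymphocyte markers 1 fell, of 6 neutrophil markers 4 rose and of 3 erythroid markers 3 fell, while 0 of 5 cholangiocyte markers passed. The hepatocyte markers' summed level (log2 of the sum) lay between 15.79 and 15.83 in EtOH remnants and 15.83 and 16.09 in EtOH controls at 24 h. It lay between 15.80 and 15.89 in HF remnants and 15.79 and 15.91 in HF controls, and between 15.88 and 15.91 in CHO remnants and 15.93 and 15.97 in CHO controls. The neutrophil sum was 6.52 to 6.82 in EtOH, 6.31 to 6.81 in HF and 6.20 to 6.61 in CHO remnants. The erythroid sum was 10.14 to 11.17 in EtOH, 8.86 to 9.47 in HF and 9.09 to 9.79 in CHO remnants, and 9.86 to 11.92 in EtOH, 10.45 to 11.10 in HF and 10.28 to 10.99 in CHO controls. Against the mean of HF and CHO at 24 h, 2 of 10 Kupffer cell and macrophage markers were lower in EtOH (5.10% of all genes). There 2 of 9 stellate and fibroblast markers were higher (1.19% of all genes), and 0 of the markers in the other 6 lists passed. Their part in the members' responses was not tested.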

How the data were processed

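Per the labels' protocols, total RNA of freeze-clamped liver was purified with Trizol and RNeasy columns and labelled as cRNA for Affymetrix Rat Gene 1.0 ST arrays. Per the submitters' processing notes, the authors used RMA in Affymetrix Expression Console, so the deposited values are log2 levels. The main input was the deposited batch-corrected log2 table, which differs from the deposited value table by a single shift for every probe set on each scan day (departures up to 9.83e-05). In the authors' table without outliers, 2 columns held another array's values (CHO 1 h replicate 3 and CHO 6 h replicate 1 controls). They matched the remnant arrays of the same rats (r = 0.985 and 0.992), which are marked as outliers. Whether the names or the marks of these rats' arrays are exchanged was not tested. The 2 columns were left out of that alternative. The control fit on the main table also leaves out the 2 control arrays, which are not marked as outliers. Array number limits the precision here.

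The arrays hold 29214 probe sets, of which 15310 carry a single gene symbol, 323 carry several and the others were not named. A gene was read from its brightest probe set on average, which gave 14506 genes, with no filter on dim genes. Responses were fitted in limma 3.58.1 (R 4.3.3) on 54 arrays of 27 rats with the animal as fixed block (18 residual degrees of freedom), controls on 29 arrays (19) and remnants on 32 arrays (18) with the scan day as block. Arrays marked as outliers (9) were left out. Calls are at 0.05 after Benjamini-Hochberg adjustment across the 14506 genes. Arrays were paired by their animal labels. After removal of group means, the 2 arrays of a rat correlated at -0.699 to 0.445 (median 0.197, with 17 of 27 over 0.1). The lowest was that of CHO 6 h replicate 4, while CHO 6 h replicates 2 and 3 had 0.003 and 0.004. Both CHO 24 h rats had -0.158. In a group of 2 rats both values are equal by construction, so the 27 values are not independent. Each of the 8 scan days held rats of 1 time, and a rat's 2 arrays shared a day.

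The members, lists and comparisons were chosen with earlier results of these data known. All members are named; of each other list, up to 6 genes with the largest called 24 h change are named, with those called in the opposite direction, and markers are given as counts. The fits were tested on simulated data. Alternatives were the other 2 tables, all arrays, repeated quantile normalization, the mean of a gene's probe sets, dim genes left out, a trended robust spread, array weights, other blocks, single scan days and leaving out each rat. Python 3.11.15 with matplotlib 3.10.9 drew the plots.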

Additional observations from a re-analysis of the deposited data

Results flagged for a closer look

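In 3 of 74 sets of values from 4 EtOH rats (members and role medians at 1 and 6 h), 1 rat stood far from the other 3, where chance gives about 1 in 20. All 3 are changes at 1 h: Cdc6 changed by 0.47 in EtOH replicate 3, Cdt1 by -0.0836 in EtOH replicate 2 and Mcm7 by 0.088 in EtOH replicate 1.

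The response to PHx differed between diets by the interaction in limma. At 6 h, Prim1 was lower in EtOH than in HF by -1.33. At 24 h, 17 members had lower responses in EtOH than in CHO: Cdc45 (-1.64), Cdc6 (-1.51), Dut (-1.22), E2f8 (-1.03), Fen1 (-1.46), Mcm7 (-1.37), Orc6 (-1.52), Pola1 (-1.14), Pole (-1.35), Prim1 (-1.39), Prim2 (-1.22), Rfc4 (-2.15), Rrm1 (-1.57), Rrm2 (-3.59), Tk1 (-1.02), Tyms (-1.49) and Uhrf1 (-1.39). Against HF, 18 members were lower: Cdc45 (-1.16), Dut (-1.29), E2f8 (-0.95), Fen1 (-1.42), Gins1 (-1.52), Lig1 (-1.02), Mcm7 (-1.29), Orc6 (-1.36), Pcna (-1.39), Pola1 (-1.03), Prim1 (-1.46), Prim2 (-1.16), Rfc4 (-1.78), Rrm1 (-1.51), Rrm2 (-3.27), Tk1 (-0.68), Tyms (-1.43) and Uhrf1 (-1.21). Both comparisons use the same EtOH rats.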

How the results depend on the processing

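Under settings other than leaving out a rat, 208 counts of called members lay within 1.5 times the reported count and 28 did not. Only total counts were compared here, so direction was not checked. Most of the 28 concern 6 h, where counts are small. With all arrays, 6 h calls were 4 in HF, 0 for EtOH against HF and 0 for EtOH against the mean of HF and CHO. After a repeated quantile normalization, 1 member was called at 1 h. With the mean of all probe sets, 2 differed between EtOH and HF at 6 h, and likewise 2 with dim genes left out. With array weights, EtOH against CHO gave 1 at 6 h, 8 at 24 h and 4 in controls, and EtOH against HF 2 at 6 h. Without the replicate block (scan day in its place), 0 were called at 1 h, and at 6 h 7 in EtOH, 1 in HF, 0 for EtOH against HF and 0 against the mean of both diets. At 24 h that fit gave 31 in the mean of the diets, 12 for EtOH against CHO and 13 against HF. With the replicate block in control livers, EtOH against CHO gave 5. On scan day 1 alone, 6 h calls were 3 in EtOH and 2 in CHO. On scan day 2 alone they were 5 in the mean of the diets, 3 in EtOH, 0 in CHO, 0 for EtOH against HF and 0 against the mean of both diets. Scan day 4 alone gave 26 for EtOH against CHO at 24 h, and scan days 7 and 8 alone gave 0 each at 1 h. Set against the mean of HF and CHO, EtOH differed in 2 members at 6 h in place of 0 (CHO) and 1 (HF). The cause of these changes was not tested.

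Leaving out each rat gave 0 to 3 calls at 1 h, 7 to 12 at 6 h and 30 to 32 at 24 h in the mean of the diets, and 30 to 31 for 24 h against 6 h. Within diets the ranges were 8 to 14 (6 h) and 8 to 21 (24 h) in EtOH, 1 to 3 and 28 to 31 in HF, and 3 to 7 and 20 to 31 in CHO. For EtOH against CHO they were 0 to 1 at 6 h, 1 to 28 at 24 h, 1 to 4 in controls and 16 to 28 in remnants. For EtOH against HF they were 0 to 2, 7 to 21, 2 to 5 and 7 to 29. For EtOH against the mean of HF and CHO they were 1 to 3 at 6 h and 14 to 27 at 24 h. With 2 or 3 rats per diet at 24 h, the number of arrays limits what these fits can call.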

Other observations

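Of the 24 h rats left out because 1 array was marked as an outlier, EtOH replicate 4 (remnant marked, and tagged with a high fat diet, so its diet is in doubt) had a median member change of 0.76, with 2.34 for Rrm2. HF replicate 3 (control marked) had 1.48, with 5.83 for Rrm2. CHO replicate 1 had 2.00, with 6.47 for Rrm2, and CHO replicate 3 had 1.27, with 4.77 for Rrm2.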
